A study of Homo sapiens with 12 samples.

Results

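Keratin genes were taken from the array annotation as every symbol made of KRT followed directly by digits, with a final letter allowed and keratin-associated proteins, pseudogenes and antisense genes left out. This gave 47 keratin genes of the 14884 genes measured. They comprised 5 simple-epithelial keratins, 14 keratins of stratified epithelia, 13 hair shaft keratins, 9 hair root sheath keratins and 6 others (KRT23, KRT24, KRT77, KRT78, KRT79 and KRT80). Where a gene had several probe sets, the brightest on average was used, and only KRT18 among the keratins had more than 1. No named probe set was found here for KRT6A, KRT6B, KRT17, KRT34, KRT81, KRT82, KRT86 or KRT222, which were not analysed here.

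The cells were Ishikawa, a line from a human endometrial adenocarcinoma, and their RNA was put on 12 expression arrays in 4 labelled groups of 3: shMOF ERα(+), control ERα(+), shMOF ERα(-) and control ERα(-). shMOF names a short hairpin against MOF, a histone acetyltransferase whose gene is KAT8. ERα is an oestrogen receptor, and its gene is ESR1. The sources used here do not give how ERα(+) differs from ERα(-), whether the shMOF cells are 1 clone, what the control cells carry or whether replicates were separate cultures. P-values thus reflect only spread among the arrays, which could be technical.

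Keratins are the intermediate filament proteins of epithelial cells. Each filament is built from pairs of an acidic type I keratin, encoded on chromosome 17 except for KRT18, and a basic type II keratin, encoded on chromosome 12. Glandular epithelia such as the endometrium carry KRT8 and KRT18 as the basic pair, with KRT7 and KRT19 beside them. KRT20 is best known from intestinal epithelium and umbrella cells of the bladder, KRT5 and KRT14 from basal layers of stratified epithelia, and KRT1, KRT2 and KRT10 from the upper layers of the epidermis.

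The arrays resembled one another closely, with correlations between 0.965 and 0.994 across probe sets. The first principal component held 36.8% of the variance. On it shMOF ERα(+) arrays lay between -29.8 and -4.40, control ERα(+) arrays between 3.60 and 32.9, shMOF ERα(-) arrays between -18.0 and 22.3 and control ERα(-) arrays between -11.9 and -3.58. KAT8, the targeted gene, differed between shMOF and control arrays by 0.04 ± 0.13 (log2 difference ± SE) in ERα(+) and -0.02 ± 0.13 in ERα(-), so the group names below are those of the labels and not a measured loss of MOF. ESR1 differed between ERα(+) and ERα(-) arrays by 0.18 ± 0.12 in control and by -0.15 ± 0.12 in shMOF. EPCAM, the epithelial adhesion molecule, had a mean of 11.53 on the log2 scale, at the 99.8th percentile of tested genes. Of the stromal markers measured, DCN averaged 2.06, LUM 2.20 and THY1 4.94.

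The brightest keratin probe sets were those of KRT18, KRT19, KRT23, KRT80 and KRT8, the only 5 of the 47 at or above the median of tested genes (5.66 on the log2 scale of the deposited values). Their means over the 12 arrays were 9.99 for KRT18, 8.30 for KRT19, 7.19 for KRT23, 6.70 for KRT80 and 6.49 for KRT8. A probe set's brightness also depends on its probes, so these positions describe probe sets and do not rank transcripts. KRT7 averaged 4.69 and KRT20 averaged 3.59, at the 33.2nd and 15.1st percentiles.

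**Figure D1:**
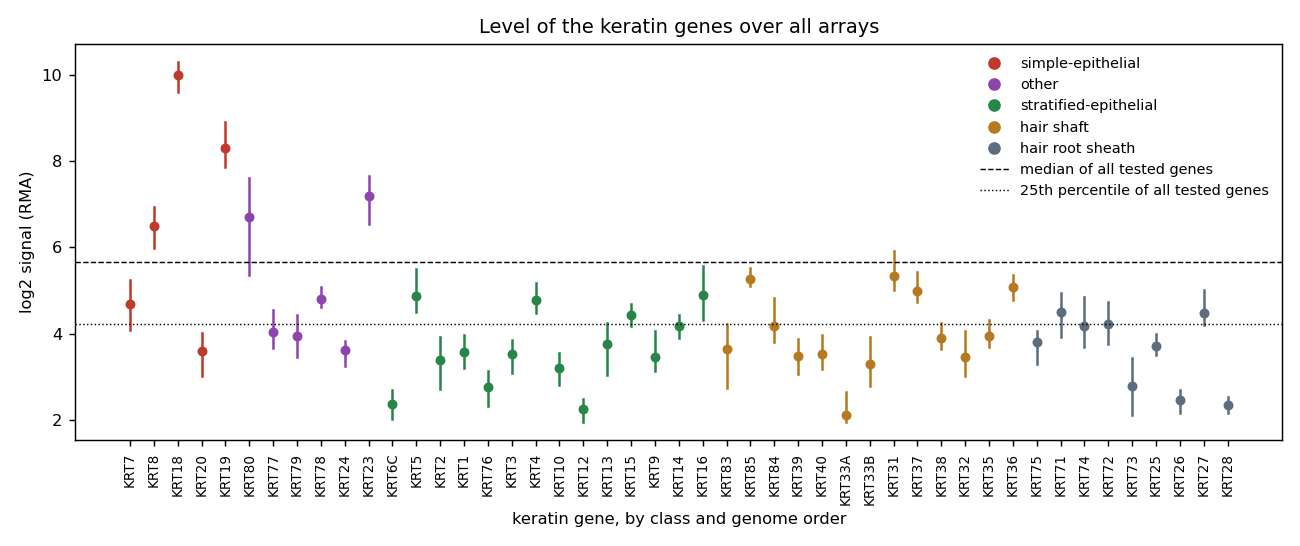
Log2 signal of the 47 keratin genes, coloured by class and in genome order within it; each point is the mean over 12 arrays and each line runs between the lowest and highest array. KRT18, KRT19, KRT8, KRT23 and KRT80 lie above the median of tested genes (5.66), and all stratified-epithelial and hair keratins have means below it.

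None of the 14 stratified-epithelial keratins reached that median, and 10 of them lay below the 25th percentile of tested genes (4.22). Their means ran between 2.24 for KRT12, a corneal keratin, and 4.89 for KRT16, a keratin induced in injured epidermis. KRT5 averaged 4.88, KRT14 averaged 4.17, KRT1 averaged 3.57 and KRT10 averaged 3.21. Among the 13 hair shaft keratins the means ran between 2.11 for KRT33A and 5.34 for KRT31, with 9 below the 25th percentile. The 9 root sheath keratins ran between 2.33 for KRT28 and 4.49 for KRT71, with 7 below the 25th percentile. For probe sets as dim as these, a difference between arrays can include background, which was not tested because a single olfactory receptor gene was available as a silent reference.

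KRT18, the type I partner of KRT8 (chromosome 12, 52948855 to 52952906, GRCh38.p14), had log2 signals of 9.75, 9.60 and 9.95 in shMOF ERα(+) arrays, against 10.10, 10.19 and 10.30 in control ERα(+) arrays. It had 10.21, 9.84 and 10.01 in shMOF ERα(-) arrays, against 9.76, 10.20 and 10.001 in control ERα(-) arrays. The ERα(+) groups did not overlap, with all 3 shMOF arrays below all 3 control arrays, whereas the ERα(-) groups overlapped. A second, dimmer KRT18 probe set read 6.31, 6.25 and 6.42 in shMOF ERα(+) arrays, against 6.56, 6.67 and 6.93 in control ERα(+) arrays, also without overlap. The identifier of the brighter probe set falls between those of CMTM8 and CMTM7 on chromosome 3. RefSeq places the pseudogene KRT18P15 (32258883 to 32260294) on that chromosome, inside the span of CMTM8 (32238192 to 32370321). The identifier of the dimmer probe set falls between those of KRT7 and EIF4B on chromosome 12, beside KRT18 itself. RefSeq lists 68 numbered KRT18 pseudogenes, 52 of KRT8 and 5 of KRT19, so signal of these probe sets is uncertain as to locus; which loci the probes match was not tested.

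KRT8, the type II partner (chromosome 12, 52897191 to 52949860, overlapping the start of KRT18), had 6.52, 6.14 and 6.60 in shMOF ERα(+) arrays, against 6.85, 6.49 and 6.94 in control ERα(+) arrays. It had 6.87, 6.004 and 6.63 in shMOF ERα(-) arrays, against 5.99, 6.67 and 6.22 in control ERα(-) arrays. Both pairs of groups overlapped, and the spread within the ERα(-) groups was the wider. KRT19, a type I keratin with a short tail (chromosome 17, 41523617 to 41528308), had 8.16, 7.86 and 8.02 in shMOF ERα(+) arrays, against 8.27, 8.28 and 8.64 in control ERα(+) arrays. Its ERα(-) values were 8.75, 8.04 and 8.34 in shMOF, against 8.91, 8.07 and 8.28 in control, where 1 array of each label was high. The ERα(+) groups of KRT19 did not overlap and the ERα(-) groups did.

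KRT7, a type II keratin of ducts and glands (chromosome 12, 52233243 to 52255853), had 4.67, 4.25 and 4.84 in shMOF ERα(+) arrays, against 4.87, 5.08 and 5.24 in control ERα(+) arrays. In ERα(-) it had 5.02, 4.08 and 4.54 in shMOF, against 4.43, 4.65 and 4.66 in control. The shMOF ERα(+) values lay below all 3 control values, while shMOF ERα(-) replicates 1 and 2 lay on either side of every control value. KRT20 (chromosome 17, 40875889 to 40885242) had 3.58, 3.49 and 3.79 in shMOF ERα(+) arrays, against 3.01, 3.70 and 3.28 in control ERα(+) arrays. Its ERα(-) values were 3.64, 3.97 and 3.39 in shMOF, against 4.01, 3.53 and 3.65 in control. KRT20 was dim throughout and its groups overlapped in both conditions.

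KRT80, a type II keratin found near desmosomes and in the periphery of differentiated cells (chromosome 12, 52168996 to 52192014), had 6.36, 6.21 and 6.33 in shMOF ERα(+) arrays, against 7.22, 7.61 and 7.35 in control ERα(+) arrays. In ERα(-) it had 7.39, 5.35 and 7.04 in shMOF, against 6.42, 6.70 and 6.44 in control. The ERα(+) groups stood apart, and shMOF ERα(-) replicate 2 had the lowest of the 12 values. Its SD within groups, pooled, was 0.56, at the 99.4th percentile of tested genes. KRT23, a type I keratin of glandular epithelium (chromosome 17, 40922700 to 40937646), had 7.47, 7.27 and 7.16 in shMOF ERα(+) arrays, against 7.20, 7.51 and 7.30 in control ERα(+) arrays. Its ERα(-) values were 7.66, 6.91 and 7.57 in shMOF, against 6.53, 7.18 and 6.58 in control. KRT23 overlapped between labels in both conditions.

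**Figure D2:**
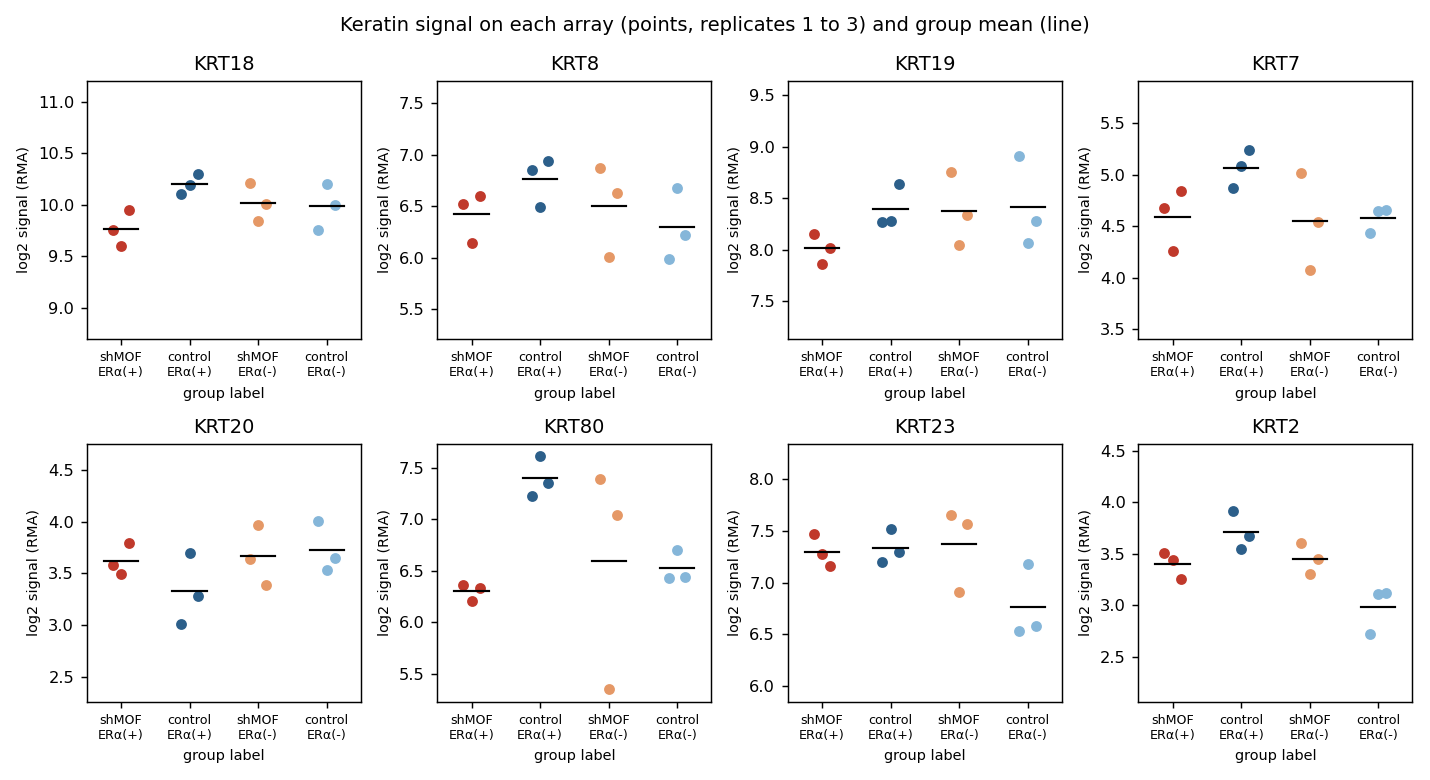
Log2 signal of 8 keratins in each array, shMOF left of control within ERα(+) and ERα(-); points are arrays and short lines are means of 3; each panel has its own log2 range. KRT18, KRT19, KRT7, KRT80 and KRT2 show no overlap between shMOF and control in ERα(+); KRT8, KRT20 and KRT23 overlap.

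Among stratified keratins, KRT2 (chromosome 12, 52644558 to 52652211), a type II keratin of the upper epidermis, had 3.50, 3.44 and 3.26 in shMOF ERα(+) arrays, against 3.91, 3.55 and 3.67 in control ERα(+) arrays. It had 3.61, 3.30 and 3.44 in shMOF ERα(-) arrays, against 2.72, 3.11 and 3.12 in control ERα(-) arrays. The shMOF arrays were the lower in ERα(+) and the higher in ERα(-), each time without overlap. The shMOF means were 3.40 in ERα(+) and 3.45 in ERα(-), and the control means 3.71 and 2.98. KRT10 (chromosome 17, 40818117 to 40822614), the type I partner of KRT1, had 3.19, 3.01 and 3.23 in shMOF ERα(+) arrays, against 3.49, 3.38 and 3.56 in control ERα(+) arrays. In ERα(-) it had 2.93, 3.39 and 3.24 in shMOF, against 2.80, 3.23 and 3.08 in control. All of these KRT2 and KRT10 values lie below the 25th percentile of tested genes.

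Windows around RefSeq transcript starts (GRCh38.p14, 250 bases before to 50 after the start) were available for 32 of the 47 keratins, in 36 windows. They are shown for KRT20 and for KRT2 and KRT10, whose values are described above, 5′ to 3′ on the gene's strand, with capitals marking a TATAAA or CCAAT match on either strand. The windows are chr17:40885193-40885492 for KRT20, chr12:52652162-52652461 for KRT2 and chr17:40822565-40822864 for KRT10, all on the minus strand.
KRT20: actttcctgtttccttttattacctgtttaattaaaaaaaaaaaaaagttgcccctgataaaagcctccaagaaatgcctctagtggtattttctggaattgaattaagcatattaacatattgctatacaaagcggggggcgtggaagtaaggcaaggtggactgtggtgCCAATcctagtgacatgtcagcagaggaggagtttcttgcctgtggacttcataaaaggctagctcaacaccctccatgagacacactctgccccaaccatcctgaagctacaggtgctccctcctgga
KRT2: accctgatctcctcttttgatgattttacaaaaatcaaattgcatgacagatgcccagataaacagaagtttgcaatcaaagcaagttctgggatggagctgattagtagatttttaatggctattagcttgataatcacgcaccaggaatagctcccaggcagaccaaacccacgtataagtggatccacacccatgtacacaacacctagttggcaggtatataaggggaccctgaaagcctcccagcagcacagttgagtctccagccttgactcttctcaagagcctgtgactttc
KRT10: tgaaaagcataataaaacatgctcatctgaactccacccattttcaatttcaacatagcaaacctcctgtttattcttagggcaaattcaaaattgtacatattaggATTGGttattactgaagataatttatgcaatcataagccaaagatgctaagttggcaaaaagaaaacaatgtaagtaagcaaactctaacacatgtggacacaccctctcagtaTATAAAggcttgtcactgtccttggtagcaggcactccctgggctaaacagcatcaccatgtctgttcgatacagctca
The KRT2 window holds no exact match to either string. Near matches to TATAAA, such as tatataag in the KRT2 window and cataaaag in the KRT20 window, were not searched. KRT20 has CCAAT with its first base at -79 relative to the start. KRT10 has TATAAA at -29, and a CCAAT on the other strand, read as ATTGG here. The KRT8 window of the table (chr12:52926420-52926719) lies well inside the span RefSeq gives for KRT8, around an internal start, and is not shown, though it is counted among the 36.

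TATAAA, an exact form of the TATA box, stood in 19 of the 36 keratin windows (52.8%), against 11.5% of all 35116 windows of this length. CCAAT stood in 47.2% of keratin windows and 34.6% of all. GGGCGG, the GC box, stood in 16.7% of keratin windows, against 45.0% of all. TGANTCA, an AP-1 site, and the consensus oestrogen response element (GGTCA, any 3 bases, TGACC) stood in 0 keratin windows, against 7.71% and 0.057% of all. At 0.057%, or 20 of all 35116 windows, 36 windows are too few for the absence of the oestrogen response element to say anything about keratins. Both strands were searched. Neighbouring keratins arose by duplication, so the windows are not independent, and a match describes letters only.

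In the shMOF ERα(+) against control ERα(+) comparison, which asks what the shMOF label goes with under ERα(+), 4 of the 5 simple keratins had lower means in shMOF. KRT7 differed by -0.47 ± 0.21 (log2 difference ± SE, 3 arrays a group), KRT18 by -0.43 ± 0.15, KRT19 by -0.38 ± 0.22 and KRT8 by -0.34 ± 0.23, while KRT20 differed by 0.29 ± 0.19. KRT80 had the largest difference of the 47 keratins, -1.09 ± 0.36, a fold of 0.469 with a 95% interval between -1.88 and -0.31 on the log2 scale. The median over the simple keratins was -0.38, beside -0.04 over all genes tested.

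None of the 47 keratins passed an adjusted p of 0.05 by limma in this comparison, nor did any of the 14884 genes (0%). KRT80 and KRT18 both had a limma adjusted p of 0.223. At an unadjusted p below 0.05, 6 keratins (12.8%) were lower in shMOF, beside 8.51% of all genes, and 0 were higher, beside 10.2%. These were KRT80, KRT18, KRT7, KRT25 of the inner root sheath (-0.35 ± 0.13), KRT10 (-0.33 ± 0.15) and KRT15 of basal epidermis (-0.32 ± 0.13). Groups did not overlap for 8 keratins lower in shMOF (17%), beside 14.1% of all genes, and for 1 higher, KRT39, beside 12.2%. The shares lower among keratins are close to those of all genes. Among hair shaft keratins none had an unadjusted p below 0.05, and KRT36 came nearest with a difference of 0.27.

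Whether KRT80 passed depended on how spread was estimated. The array shMOF ERα(-) replicate 2 lies outside the comparison and enters only the pooled spread. Without it, the KRT80 difference stayed at -1.09 and its limma adjusted p was 0.0166. With array quality weights and all arrays kept, that p was 0.0278. All genes called then numbered 30 and 1629 in that order, against 0 without either change. A fit on only the groups compared, which also leaves shMOF ERα(-) replicate 2 out of the spread, called 0 genes. Over the 24 alternatives run, the KRT80 difference lay between -1.18 and -0.96. Its limma adjusted p lay between 0.0166 and 0.971, passing in 2. The count of keratins lower at an unadjusted p below 0.05 was 2 without control ERα(+) replicate 3, which has the highest value of the first principal component. All genes with such a p then numbered 1182, beside 2787 with all arrays.

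**Figure D3:**
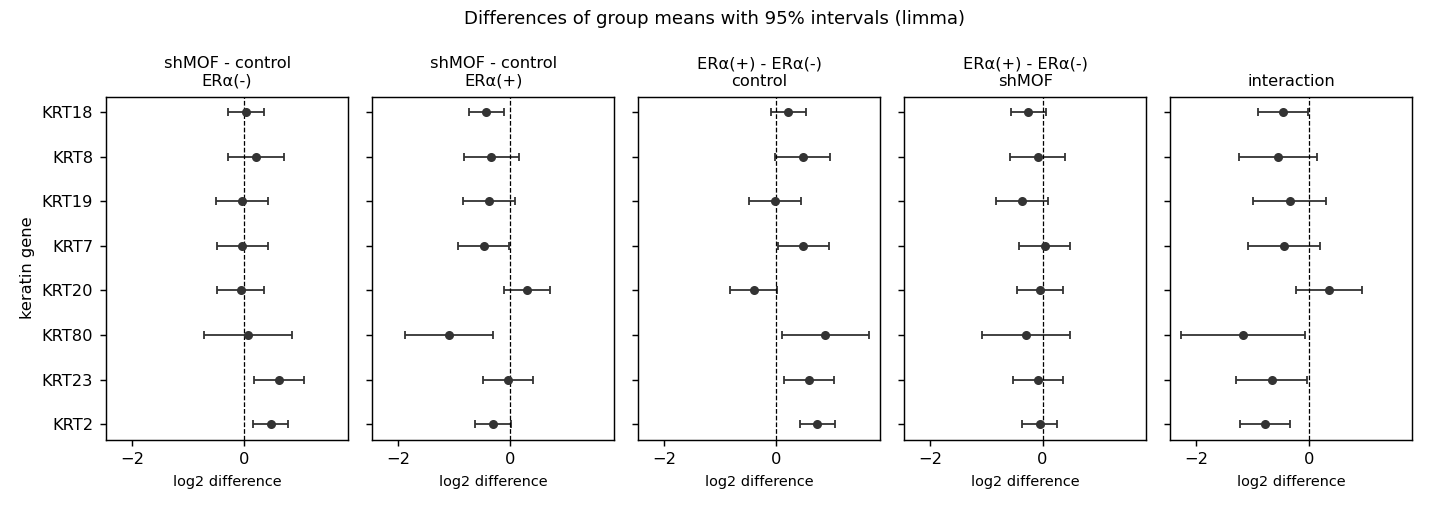
Log2 differences with 95% intervals (limma) for the 5 simple keratins, KRT80, KRT23 and KRT2 in each comparison, the group named first minus the second, with the interaction at the right. The intervals are not adjusted for the number of genes, and none of the 47 keratins passes an adjusted p of 0.05 in any of the 5 comparisons.

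ERα(+) against ERα(-) among control arrays asks what goes with the ERα label where no hairpin against MOF is labelled. KRT2 differed by 0.73 ± 0.15, with a limma adjusted p of 0.319, and KRT80 by 0.87 ± 0.36. KRT23 differed by 0.58 ± 0.21, KRT7 by 0.48 ± 0.21 and KRT10 by 0.44 ± 0.15. These 5 keratins (10.6%) were higher in ERα(+) at an unadjusted p below 0.05, beside 6.34% of all genes, and KRT40 of the hair shaft was lower, with a difference of -0.38 ± 0.17, beside 6.38%. No keratin and no gene passed the adjusted threshold (0%). The control ERα(+) arrays serve in this comparison and in the preceding one, so KRT80, KRT7 and KRT10 appear in both with opposite signs through the same 3 arrays.

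The other simple keratins did not reach an unadjusted p of 0.05 here. KRT8 differed by 0.46 ± 0.23, KRT18 by 0.21 ± 0.15, KRT19 by -0.02 ± 0.22 and KRT20 by -0.40 ± 0.19. Their median with KRT7 was 0.21, beside -0.00 over all genes, and it was 0.32 without control ERα(-) replicate 2. Groups did not overlap for 6 keratins higher in ERα(+) (12.8%), beside 10.3% of all genes, and for 1 lower, KRT24, beside 8.92%. KRT83 of the hair shaft was the one of these 6 whose unadjusted p was above 0.05, and KRT73 had the smallest p among root sheath keratins, with a difference of -0.52 ± 0.27. Without control ERα(-) replicate 1, 1 keratin was higher at an unadjusted p below 0.05 in place of 5. That count was 3 without replicate 3 of control ERα(-) or replicate 2 of control ERα(+), and 4 without replicate 3 of control ERα(+). It was 6 without replicate 1 or 2 of shMOF ERα(-) or replicate 1 of control ERα(+), and 7 without replicate 2 of control ERα(-). Over all genes, in either direction, 1894 had such a p with all arrays. Leaving out replicate 1, 2 or 3 of control ERα(-) gave 1254, 1991 and 1388, and replicate 2 of control ERα(+) gave 2463. The count of 1 lower keratin ranged between 0 and 4 when 1 array was left out, reaching 4 without control ERα(-) replicate 2. It was 2 without replicate 2 of shMOF ERα(-), replicate 2 of control ERα(+) or replicate 1 of shMOF ERα(+). It was 0 without replicate 1 or 3 of control ERα(-), replicate 1 or 3 of shMOF ERα(-), replicate 3 of control ERα(+) or replicate 3 of shMOF ERα(+).

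The simple keratins did not separate shMOF from control in ERα(-). KRT8 differed by 0.21 ± 0.23, KRT18 by 0.03 ± 0.15, KRT7 by -0.04 ± 0.21, KRT19 by -0.04 ± 0.22 and KRT20 by -0.06 ± 0.19, and all 5 intervals included 0. Leaving out 1 array moved KRT8 to between 0.02 (without shMOF ERα(-) replicate 1) and 0.46 (without replicate 2). KRT19 lay at 0.20 without control ERα(-) replicate 1, and KRT7 at 0.20 without shMOF ERα(-) replicate 2 and at -0.27 without replicate 1. At an unadjusted p below 0.05, 3 keratins were higher in shMOF (6.38%), beside 2.1% of all genes: KRT23 by 0.61 ± 0.21, KRT2 by 0.47 ± 0.15 and KRT33A by 0.33 ± 0.13. KRT23 and KRT2 were also higher in ERα(+) against ERα(-) among control arrays, which subtracts the same 3 control ERα(-) arrays. KRT9, the keratin of palm and sole epidermis, was lower, with a difference of -0.36 ± 0.16, beside 2.68% of all genes. The smallest limma adjusted p among keratins was 0.953, and 0% of genes passed. KRT80 differed by 0.07 ± 0.36, by 0.69 without shMOF ERα(-) replicate 2 (limma adjusted p 0.206) and by -0.33 without replicate 1 of that group. KRT72 came nearest among root sheath keratins at 0.20 ± 0.17. The KRT33A probe set lies at the 2.9th percentile, and KRT33A is nearly identical to KRT33B, so signal may be shared between them. The count of 1 lower keratin was 0 when the array left out was replicate 1 or 3 of control ERα(-), replicate 2 of shMOF ERα(-), replicate 1 of control ERα(+) or replicate 3 of shMOF ERα(+), and 2 when it was replicate 2 of control ERα(-) or of shMOF ERα(+).

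ERα(+) against ERα(-) among shMOF arrays gave 0 keratins higher and 2 lower at an unadjusted p below 0.05, beside 2.52% and 2.81% of all genes. These were KRT72 of the root sheath, by -0.40 ± 0.17, and KRT33A, by -0.32 ± 0.13. Among simple keratins KRT19 differed by -0.36 ± 0.22, KRT18 by -0.25 ± 0.15, KRT8 by -0.08 ± 0.23, KRT20 by -0.05 ± 0.19 and KRT7 by 0.04 ± 0.21. KRT80 differed by -0.29 ± 0.36, and by -0.91 without shMOF ERα(-) replicate 2, with a limma adjusted p of 0.0730 (0.0401 to 0.9999 over the 24 alternatives). KRT24 had the smallest p of the 6 others, at -0.17 ± 0.15, and KRT3, a corneal keratin, that of the stratified class, at 0.17 ± 0.17. At an unadjusted p below 0.05, 5 keratins were lower without shMOF ERα(-) replicate 2, 1 without shMOF ERα(+) replicate 2 and 0 without shMOF ERα(+) replicate 3. Over all genes, 2587, 436 and 756 had such a p in those fits, beside 793 with all arrays. The smallest limma adjusted p among keratins with all 12 arrays was 0.746, and 0% of genes passed.

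The interaction, that is, the shMOF difference under ERα(+) less the one under ERα(-), tests whether the shMOF label goes with different shifts under the ERα labels. It was -1.16 ± 0.51 for KRT80, -0.78 ± 0.21 for KRT2, -0.65 ± 0.29 for KRT23, -0.48 ± 0.21 for KRT10 and -0.46 ± 0.21 for KRT18. These 5 keratins (10.6%) had an unadjusted p below 0.05, beside 8.69% of all genes in the same direction, and 0 keratins did in the other, beside 9.35%. None passed after adjustment, the smallest limma adjusted p being 0.219 for KRT2, and 0% of all genes passed. Without shMOF ERα(-) replicate 2, KRT80 stood at -1.78 with a limma adjusted p of 0.00253, and KRT2 at -0.85 with 0.0480. Over all alternatives run, these limma adjusted p-values lay between 0.00253 and 0.712 for KRT80 and between 0.00554 and 0.701 for KRT2. The count of 5 at an unadjusted p below 0.05 was 1 without control ERα(+) replicate 3. It was 2 when the array left out was replicate 1 of control ERα(-), replicate 3 of shMOF ERα(-) or replicate 2 of either ERα(+) group. It was 3 when it was replicate 3 of control ERα(-), replicate 1 of shMOF ERα(-) or replicate 3 of shMOF ERα(+). It was 4 without shMOF ERα(+) replicate 1, 6 without control ERα(-) replicate 2 and 7 without shMOF ERα(-) replicate 2. Over all genes, in either direction, 2685 had such a p with all arrays. They numbered 1719 without control ERα(+) replicate 3, 2570 without control ERα(-) replicate 2 and 4036 without shMOF ERα(-) replicate 2. For the other simple keratins the interaction was -0.55 ± 0.32 for KRT8, -0.44 ± 0.30 for KRT7, -0.34 ± 0.31 for KRT19 and 0.36 ± 0.27 for KRT20. KRT36 of the hair shaft stood at 0.42 ± 0.19 and KRT72 at -0.50 ± 0.24. The median over simple keratins was -0.44, beside -0.03 over all genes, and it was -0.20 without shMOF ERα(-) replicate 1 and -0.27 without shMOF ERα(+) replicate 2.

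Keratin partners form filaments in pairs, so 6 measured pairs were compared across the 12 arrays. KRT8 and KRT18 correlated at a Pearson r of 0.77 (permutation p = 0.00452, adjusted over the 6 pairs 0.0271) and a Spearman rho of 0.80 (permutation p = 0.00298, adjusted 0.0179). Without the 2 arrays farthest from the KRT8 median, r was 0.74, and with group means removed it was 0.86. The pairs KRT8 with KRT19 (0.19), KRT7 with KRT19 (0.40), KRT18 with KRT19 (0.34), KRT5 with KRT14 (-0.34) and KRT1 with KRT10 (0.04) did not pass. Without control ERα(-) replicate 1, where KRT19 was brightest, the 3 KRT19 pairs reached 0.68, 0.71 and 0.73 and passed, so 1 array decides them. Without the 2 arrays farthest from the median of the keratin named first, they gave 0.68, 0.18 and -0.03. Control ERα(-) replicate 1 was among those 2 only for KRT8 with KRT19. With group means removed, the 3 pairs gave 0.19, 0.48 and 0.01. KRT8 and KRT18 no longer passed without shMOF ERα(-) replicate 1 (r = 0.74), control ERα(+) replicate 3 (0.72) or shMOF ERα(+) replicate 2 (0.74). The KRT18 values here are those of the brighter probe set, whose locus is uncertain, and pairs with the dimmer probe set alone were not tested. KRT8 and KRT18 overlap in the genome, and all pairs share the arrays.

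**Figure D4:**
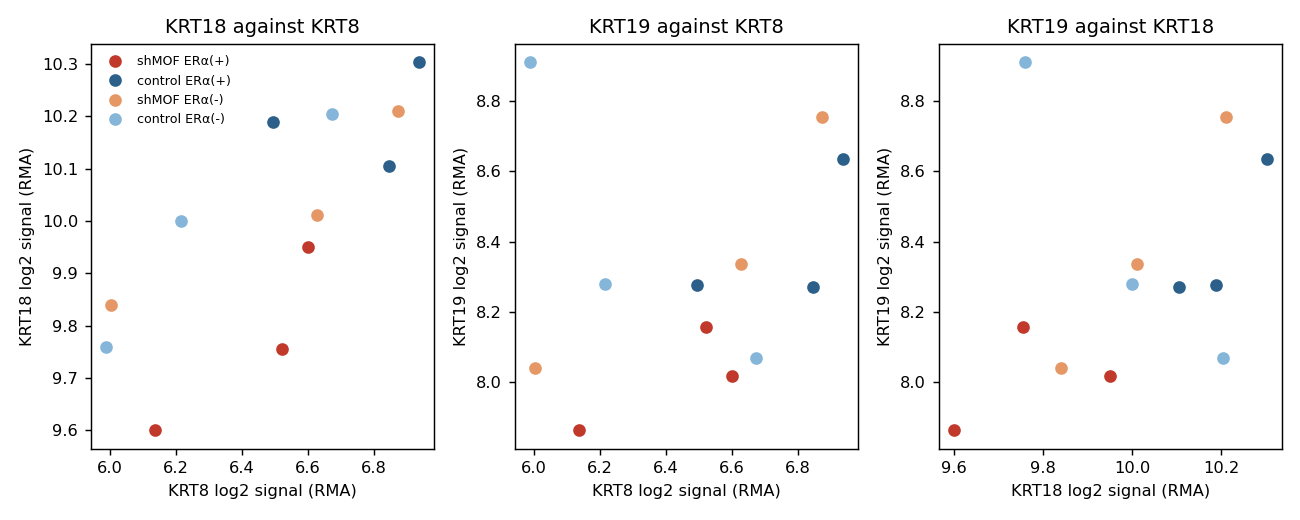
Log2 signal of keratin partners plotted against each other, 1 point an array, coloured by labelled group. KRT18 against KRT8 gives r = 0.77; KRT19 against KRT8 gives r = 0.19 and KRT19 against KRT18 gives r = 0.34, with control ERα(-) replicate 1 at the top left of both.

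Desmosomes and plakins anchor keratin filaments to the membrane, and 18 of these genes were measured. In shMOF ERα(+) against control ERα(+), 1 was higher (5.56%, beside 10.2% of all genes) and 3 were lower (16.7%, beside 8.51%) at an unadjusted p below 0.05, with a median of -0.10, beside -0.04 over all genes. JUP, the plaque protein plakoglobin, had 9.63, 9.18 and 9.59 in shMOF ERα(+) arrays, against 10.07, 9.84 and 10.13 in control ERα(+) arrays, a difference of -0.55 ± 0.16 (limma adjusted p 0.223). DST, the plakin dystonin, had 5.79, 6.44 and 5.93 in shMOF ERα(+) arrays, against 5.24, 5.60 and 4.86 in control ERα(+) arrays, a difference of 0.82 ± 0.24. All other intermediate filament genes, 8 of them, had differences below 0 there, between -0.34 and -0.00, with 0 at an unadjusted p below 0.05. Of all genes 8367 of 14884 were below 0, and 8.51% were lower at that p.

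Of 15 cornified envelope genes, whose proteins form the cross-linked shell of cornified cells, 1 had an unadjusted p below 0.05 in that comparison, SPRR1B at -0.64 ± 0.17 (6.67% lower, beside 8.51% of all genes). Of 15 epithelial transcription factors and splicing regulators, 3 did, all lower, among them ESRP2 at -0.37 ± 0.14 and OVOL2 at -0.39 ± 0.15 (20% lower, beside 8.51% of all genes, and 0 higher, beside 10.2%). Of 6 epithelial markers, ST14, a membrane protease, did at -0.53 ± 0.22, also beside 8.51% of all genes. In ERα(+) against ERα(-) control arrays, EPPK1, an epidermal plakin, differed by 0.54 ± 0.17, JUP by 0.44 ± 0.16, SPRR1B by 0.50 ± 0.17, IVL by 0.42 ± 0.16, SOX9 by 0.45 ± 0.16 and ST14 by 0.51 ± 0.22. OVOL2 differed there by 0.36 ± 0.15. At an unadjusted p below 0.05, 2 desmosome and plakin genes (11.1%) and 2 cornified envelope genes (13.3%) were higher in ERα(+). So were 3 of the transcription factor list (20%) and 1 epithelial marker (16.7%), beside 6.34% of all genes. In these lists 0 were lower, beside 6.38%. JUP, SPRR1B, ST14 and OVOL2 had the opposite sign in shMOF ERα(+) against control ERα(+), which uses the same 3 control ERα(+) arrays. In shMOF against control under ERα(-), EPPK1 differed by 0.46 ± 0.17, IVL by 0.39 ± 0.16, OVOL2 by 0.36 ± 0.15 and PECAM1, an endothelial marker, by 0.49 ± 0.22. The desmosome, cornified envelope, transcription factor, and immune and endothelial lists each had 1 gene higher at an unadjusted p below 0.05. Their shares were 5.56%, 6.67%, 6.67% and 16.7%, beside 2.1% of all genes, and 0 were lower, beside 2.68%. EPPK1, IVL and OVOL2 were also higher in ERα(+) against ERα(-) control arrays, which subtracts the same 3 control ERα(-) arrays. Among shMOF arrays, ERα(+) against ERα(-) gave 0.57 ± 0.24 for DST and -0.39 ± 0.15 for OVOL2. DST was the 1 desmosome or plakin gene higher at that p (5.56%), beside 2.52% of all genes. OVOL2 was the 1 gene of the transcription factor list lower (6.67%), beside 2.81%. The interaction was -0.80 ± 0.24 for EPPK1, -0.72 ± 0.22 for JUP, -0.74 ± 0.21 for OVOL2 and -0.57 ± 0.20 for ESRP2. It was -0.70 ± 0.24 for SPRR1B, -0.82 ± 0.31 for ST14, -1.10 ± 0.38 for CD68 and 0.97 for DST. At an unadjusted p below 0.05 there, 1 desmosome or plakin gene was higher (5.56%) and 3 were lower (16.7%). The cornified envelope, transcription factor and epithelial marker lists gave 0 higher. They gave 1 (6.67%), 2 (13.3%) and 1 (16.7%) lower in that order. Of all genes 9.35% were higher and 8.69% lower. None of the genes named in these comparisons passed after adjustment.

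The 6 epithelial markers measured, of 10 listed, had a mean per array between 9.01 and 9.37 in shMOF ERα(+), 9.25 and 9.61 in control ERα(+), 9.16 and 9.52 in shMOF ERα(-) and 9.20 and 9.28 in control ERα(-). The 6 immune and endothelial markers measured, of 10, lay between 4.32 and 4.42 in shMOF ERα(+), 4.31 and 4.62 in control ERα(+), 4.24 and 4.64 in shMOF ERα(-) and 4.33 and 4.41 in control ERα(-). The groups overlapped on both lists. CD68, a macrophage and lysosome marker, differed by -0.58 ± 0.27 in shMOF ERα(+) against control ERα(+) and by 0.73 ± 0.27 in the ERα comparison among control arrays; its part in the keratin values was not tested.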

How the data were processed

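RNA of 12 arrays was measured on an Affymetrix platform. The deposited values are log2 signals; the submitters' processing notes name RMA and Affymetrix Expression Console 1.4.1. RMA normalizes probe values between arrays before summarising them and can compress differences of dim genes; array medians of the deposited values lay between 4.53 and 4.59. The sources used here give neither annotation build nor hybridisation batches. Of 53617 probe sets, 16098 carried 1 gene symbol, leaving 14884 genes, unfiltered. A mean per group was fitted with limma 3.58.1 in R 4.3.3 (lmFit, eBayes, two-sided; 8 residual and 5.6 prior degrees of freedom), with Benjamini-Hochberg adjustment over all genes in each comparison and a threshold of 0.05. The number of arrays, 3 a group, limits precision: a 95% interval reached a median of 0.33 on the log2 scale to either side. The code was tested on simulated data. Correlations used 100000 permutations in Python 3.11.15. Promoters came from RefSeq, GRCh38.p14.

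Keratins and lists were chosen with earlier results of these data known. Named were all simple keratins, keratins at or above the median level, those with an unadjusted p below 0.05 in a comparison or the smallest p in a class, and up to 2 such genes a comparison from each further list. Alternatives are given in the closing section. A planned olfactory receptor background was not used, as 1 gene was measured.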

Additional observations from a re-analysis of the deposited data

Results flagged for a closer look

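KRT2 differed between shMOF and control arrays in opposite directions under the ERα labels, without overlap in either: all 3 shMOF arrays were below control in ERα(+) and above control in ERα(-). The difference of the differences was -0.78 on the log2 scale (limma adjusted p 0.219), so it was not established after adjustment. The KRT2 probe set lies at the 12.7th percentile of tested genes.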

How the results depend on the processing

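Calls depended most on how array spread was weighted. With array quality weights, the keratins called numbered 1 in shMOF against control under ERα(-), 3 under ERα(+), 1 in ERα(+) against ERα(-) among control arrays, 4 among shMOF arrays and 7 in the interaction, in place of 0 in each. All genes called then numbered 645, 1629, 217, 1918 and 3258 in that order. Leaving out 1 array at a time gave 0 to 1 keratins in shMOF against control under ERα(+), 0 to 2 in the interaction and 0 in the other comparisons. Both gains came without shMOF ERα(-) replicate 2, when 30 genes in all were called in the one and 570 in the other, against 0; the unadjusted p of KRT2 in the interaction was then 0.00170 by limma, against 0.00224. Partner pairs passing ranged from 0 to 4 when 1 array was left out, against 1 with all arrays, and quantile normalization again gave 0 (KRT8 with KRT18 r = 0.70, adjusted permutation p = 0.0695). The cause was not tested. Median differences of simple keratins moved by less than 0.331 under all alternatives run. This limit is the SD between replicates of the median level of these keratins on an array. On each array that median was the KRT8 value, so the SD is that of KRT8 alone and not of a median difference. That SD is of the size of the medians, so a median could change sign within it and the limit could flag little. With 1 array left out, the median ran between -0.06 and 0.13 in shMOF against control under ERα(-). It ran between -0.33 and 0.02 in ERα(+) against ERα(-) among shMOF arrays. In the other comparisons it kept its sign when 1 array was left out.

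Titles share replicate numbers. Deviations of same-numbered arrays from their group means correlated at r between -0.179 and 0.453 over 18 pairs of arrays, 5 above 0.1. For replicate 2, r was 0.453 between the shMOF groups, 0.378 between the ERα(+) groups and -0.179 between the ERα(-) groups. Arrays with different numbers were not compared, so these values do not settle whether the numbers pair samples. With the replicate number as a block, 0 keratins were called in each of the 5 comparisons. Leaving out control ERα(+) replicate 3 and shMOF ERα(+) replicate 2 together, an alternative chosen after seeing the data, left 1 keratin lower in shMOF ERα(+) at an unadjusted p below 0.05, against 6 with all arrays; over all genes the count at that p was 635, against 2787. The median of simple keratins was then -0.19 in that comparison and -0.18 in the interaction.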
